A study of Mus musculus with 52 samples.

Results

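The heat shock proteins and their DnaJ co-chaperones were followed through the frontal cortex of mice that develop amyloid plaques. Members were the table entries whose gene symbol starts with Hspa, Hspb, Hspd, Hspe, Hsph, Hsp90 or Dnaj, which gave 68 of 15692 entries. Of these, 65 are genes of heat shock or J-domain proteins. The symbol rule also caught Hspbp1 (a nucleotide exchange factor that binds Hsp70), Hspbap1 (named for binding a small heat shock protein) and the pseudogene Dnajc19-ps. By family the 65 comprise 13 Hspa, 6 Hspb, 3 Hsp90, 4 Dnaja, 11 Dnajb and 25 Dnajc genes, and 1 gene each of Hspd, Hspe and Hsph.

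Cortical RNA was sequenced from 52 mice, 1 library per animal. All mice carried the APP/PS1ΔE9 transgenes and were homozygous for human APOE3 (APP/E3) or human APOE4 (APP/E4) in place of the mouse gene by targeted replacement. Males and females received a normal diet (ND, Prolab Isopro RMH 3000) or a Western diet (HFD, D12079B) with 40% of calories from fat. Feeding began when the mice were 3.5 months old on average and lasted 3 months, and behavioural tests took place at an average of 14.7 months; the age at dissection was not analysed here. No group lacked the amyloid transgenes or carried mouse Apoe, so every contrast lies within transgenic mice with human APOE. The groups were APP/E3 ND males (n = 6), APP/E3 HFD males (n = 6), APP/E4 ND males (n = 6), APP/E4 HFD males (n = 5), APP/E3 ND females (n = 7), APP/E3 HFD females (n = 8), APP/E4 ND females (n = 7) and APP/E4 HFD females (n = 7).

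Libraries held 5343347 to 13128299 counted reads, apart from 1 APP/E3 ND male library with 39388340. Levels are given in CPM, counts scaled to a common library total. The 6 markers of excitatory cortical neurons summed to 3970 to 8900 CPM, with none at 0 in all libraries. The libraries were clustered on reads assigned to pseudogenes, with the number of sets fixed at 3. The sets are called read classes here: class 1 with 33 libraries of both sexes, class 2 with 11 libraries, all female, and class 3 with 8 libraries, all male. Class 2 held 5 of the 8 APP/E3 HFD females and 2 of the 7 mice in every other female group, so sex and class are partly confounded. Csl lay between 0.0936 and 1.15 CPM in class 2 and between 10.7 and 18.2 CPM in class 1, and no label names the split. Markers of olfactory tissue were also lower in class 2 (median summed level 31.5 CPM against 132 CPM in class 1). Of these markers 6 of 6 passed the test, beside 22.8% of all tested genes. The classes were drawn from these counts, so a class difference is a description of the libraries and not an effect of a treatment. Sequencing whole cortex cannot tell fewer cells of a type from less RNA per cell.

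Hsp70 proteins bind unfolded stretches of other proteins and release them in a cycle driven by ATP. J-domain proteins, the DnaJ families, bring substrates and stimulate the ATPase step, and exchange factors reset the cycle. Hsp90 acts later, on signalling proteins and receptors, the mitochondrial Hsp60 and Hsp10 pair forms a folding chamber, and small heat shock proteins hold unfolded protein without using ATP. In neurons the same machinery strips clathrin from synaptic vesicles and keeps the release apparatus folded.

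Hsp90ab1, the constitutive cytosolic Hsp90, was by far the most abundant member per length of annotated exon. That length is the union over all annotated transcripts of a gene, which can exceed the length of any 1 transcript. It is 8.63 kilobases for Dnaja1 and 2.98 for Dnaja2, so ranks per kilobase depend on it. Its mean level was 574 CPM per kilobase of exon, 5.91 times that of the next member, Hsp90b1. In CPM it ranged from 1504 to 2089 over the 52 libraries (1723 ± 116, SD), which is 22.3% of all reads assigned to members. Hsp90b1 (Grp94, the Hsp90 of the endoplasmic reticulum) followed at 97.1 CPM per kilobase, and Hsp90aa1, the inducible cytosolic Hsp90, at 83.1. The 3 Hsp90 genes together took 31.6% of member reads, the 25 Dnajc genes 25.6% and the 13 Hspa genes 22.3%.

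**Figure D1:**
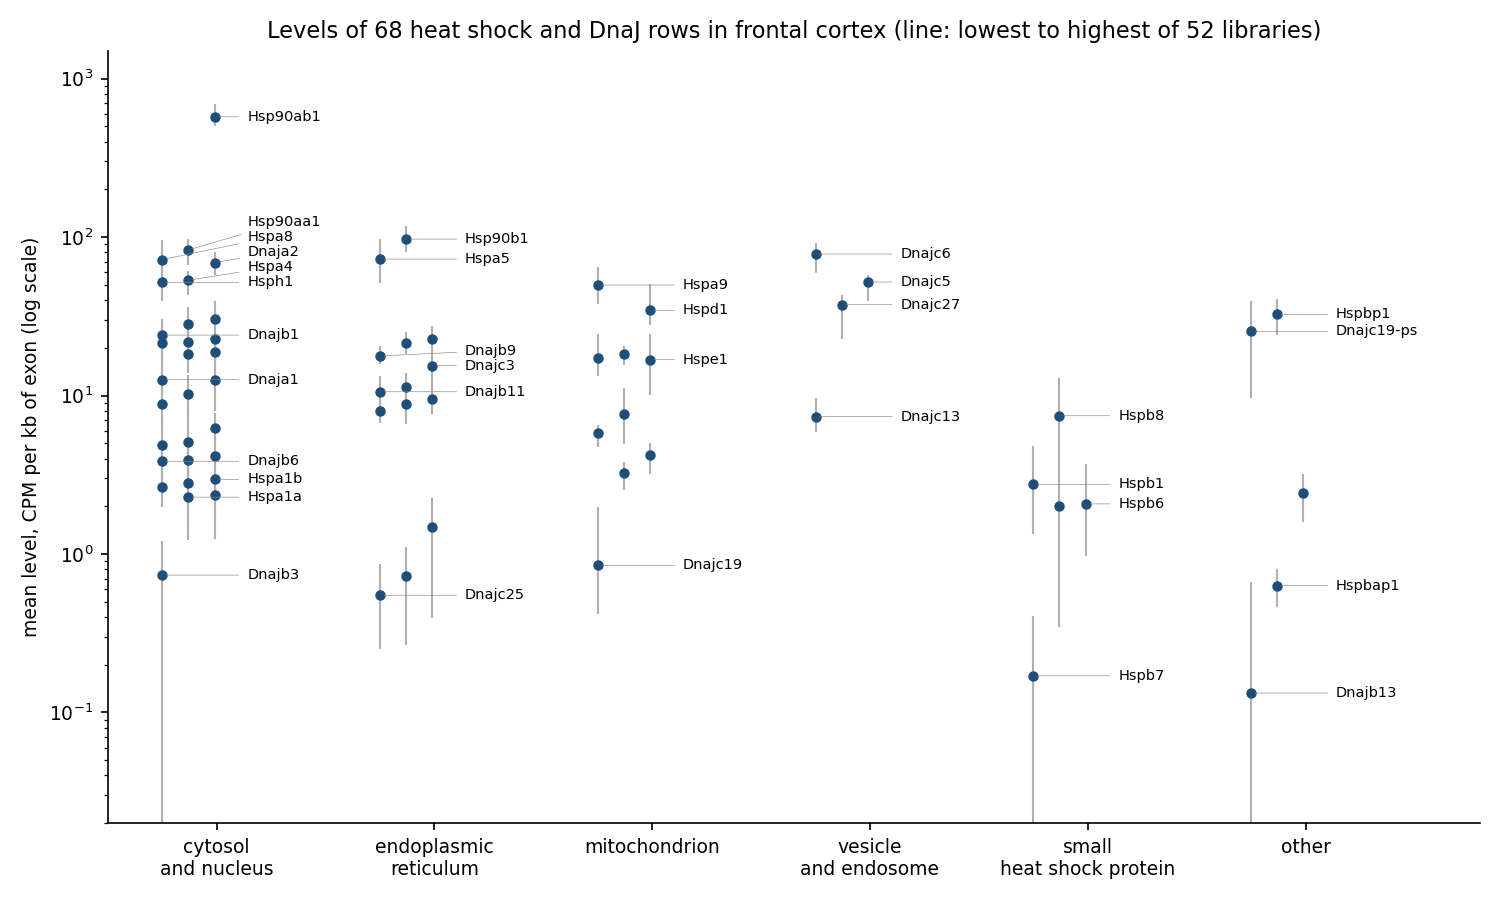
Mean level of each of the 68 members in CPM per kilobase of exon (log axis), arranged by compartment, with a line from the lowest to the highest of 52 libraries. Hsp90ab1 stands alone at 574, while the small heat shock proteins lie at or below 7.46.

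Among the cytosolic Hsp70s, the constitutive Hspa8 (Hsc70, which uncoats clathrin) stood at 72.1 CPM per kilobase and the stress-inducible Hspa1a at 2.28, a ratio of 31.6. Hspa1b, the sister copy of Hspa1a, stood at 2.95. Hspa1a and Hspa1b are near-identical. Closely matching pseudogenes (counted below) number 12 for Hspa8, 7 for Dnajb6, 4 for Hsp90aa1, 3 for Dnaja1 and 2 for Hsp90ab1. In the other compartments Hspd1 has 5, Hspe1 3, and Hspa9 and Dnajb9 1 each. The levels, ratios and ranks of all these members therefore depend on how shared reads were counted. That is not given in the sources used here. Hsph1 (Hsp105) and Hspa4 (Apg2), members of the Hsp110 branch that exchanges nucleotide on Hsp70, reached 51.8 and 53.5 CPM per kilobase. Of the cytosolic J proteins Dnaja2 was highest at 68.9, with Dnajb1 (Hsp40) at 24.1 and Dnaja1 at 12.6. Dnajb6, known for suppressing polyglutamine aggregation, stood at 3.85.

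In the endoplasmic reticulum, Hspa5 (BiP) stood at 72.6 CPM per kilobase, with its J partners Dnajb9 at 17.8, Dnajc3 (p58IPK) at 15.4 and Dnajb11 at 10.6. On vesicles and endosomes, Dnajc6 (auxilin, which recruits Hspa8 to clathrin coats) stood at 78.2 and Dnajc5 (cysteine string protein, which guards synaptic vesicle release) at 52.03. The mitochondrial set was led by Hspa9 (mortalin) at 49.8 and Hspd1 (Hsp60) at 34.4, with Hspe1 (Hsp10) at 16.8.

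Summed over compartments, the 30 members of the cytosol and nucleus held 60.0% of member reads, the 14 of the endoplasmic reticulum 17.4%, the 4 of vesicles and endosomes 14.2% and the 10 of mitochondria 7.0%. The 5 small heat shock proteins held 0.3%. The sum over all members was 7734 ± 414 CPM (SD, n = 52), from 6942 to 8590.

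Across the 8 groups these sums are given as a description, with no test. The cytosolic sum had group means from 4511 ± 245 CPM in APP/E3 ND males (n = 6) to 4780 ± 371 in APP/E4 ND females (n = 7). The endoplasmic reticulum sum ran from 1296 ± 103 in APP/E3 ND males to 1392 ± 130 in APP/E4 HFD females (n = 7). Both gaps are smaller than the SD of the group at the upper end. The mitochondrial sum ran from 513 ± 27.1 in APP/E3 ND males to 576 ± 45.6 in APP/E4 ND females. The vesicle sum ran from 1073 ± 59.6 in APP/E3 ND females to 1178 ± 44.0 in APP/E3 HFD males, and the small heat shock sum from 19.7 ± 3.1 in APP/E3 HFD males to 27.7 ± 1.8 in APP/E4 HFD females. These last 3 gaps exceed the SD of the group at the upper end.

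Group means of single members spanned narrow ranges in the abundant genes. Hsp90ab1 ran from 1686 ± 87.6 CPM in APP/E4 ND males to 1772 ± 83.7 in APP/E4 ND females, and Hspa8 from 295.5 ± 37.2 in APP/E3 ND males to 320.4 ± 30.5 in APP/E3 HFD males. Hspa5 ran from 279 ± 48.9 in APP/E4 ND males to 334 ± 69.3 in APP/E4 HFD females, and Hsp90b1 from 372 ± 27.4 in APP/E3 ND females to 424 ± 38.0 in APP/E4 HFD females. The highest mean of both endoplasmic reticulum chaperones was thus in APP/E4 HFD females. Hsph1 ran from 352 to 395 CPM, Hsp90aa1 from 311 to 340, Dnajc5 from 350 to 385 and Dnajc6 from 446 to 500.5. The J proteins Dnaja1 (104 to 113 CPM), Dnajb1 (71.5 to 81.2), Dnajb9 (44.2 to 46.2), Dnajb11 (32.8 to 35.7) and Dnajc3 (73.5 to 84.1) were as even. Among low members the relative range was wider, with Hspa1b from 5.95 ± 0.73 CPM in APP/E3 HFD males to 11.9 ± 4.8 in APP/E3 ND females, Hspb1 from 2.33 to 3.62 and Hspb8 from 11.8 to 16.7.

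The spread of members within a group differed widely. It includes counting noise, which is larger on the log2 scale at low counts, and differences of read class within groups. The within-group SD on the log2 scale was under 0.15 for 26 members and over 0.3 for 16. Dnaja3 (Tid1, a mitochondrial J protein) had the smallest SD at 0.086, followed by Dnajc14 (0.092), Dnajc11 (0.098) and Hsp90ab1 (0.100). Hspa1b (0.422, mean 8.28 CPM) and Hspb1 (Hsp27, 0.421, 2.83 CPM) were among the members of larger SD. The inducible Hsp90aa1 (0.138, 327 CPM) and Hsph1 (0.143, 376 CPM) were among those of smaller SD. These levels are far apart, so the SDs are not read as a difference in variation between animals. Hspb7 (0.471 CPM) and Dnajb13 (0.362 CPM) were too low to test, which left 66 members among 15195 tested genes. At these depths, 3 reads correspond to 0.0762 to 0.561 CPM, so both lie near the counting limit.

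Sequences are shown here for genes whose levels are compared below. Hspa1a and Hspa1b lie side by side on mouse chromosome 17, and their transcripts are 99.2% identical over 2201 aligned bases, so reads cannot be assigned to either with certainty. The stretches are the 130 bases before each start (RefSeq, GRCm38.p6), at chr17:34972157-34972286 and chr17:34959239-34959368, both on the minus strand. They differ at 1 position. Capitals mark a match to GAANNTTC, a 2-unit form of the heat shock element bound by heat shock factors, 104 bases before the start.
Hspa1a: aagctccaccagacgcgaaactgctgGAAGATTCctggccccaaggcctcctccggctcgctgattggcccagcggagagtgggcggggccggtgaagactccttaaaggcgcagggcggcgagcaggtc
Hspa1b: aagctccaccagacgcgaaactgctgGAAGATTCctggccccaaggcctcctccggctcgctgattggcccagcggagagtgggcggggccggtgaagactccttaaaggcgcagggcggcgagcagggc

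Hspd1 and Hspe1, the subunits of the mitochondrial chaperonin, are divergent neighbours on chromosome 1 whose starts lie 216 bases apart on opposite strands. Both promoter windows therefore contain the same element, shown as 30 bases on the Hspe1 strand at chr1:55088053-55088082 (plus strand). The 18 capitals merge overlapping matches to TTCNNGAANNTTC and GAANNTTCNNGAA, the 3-unit heat shock element.
Hspe1: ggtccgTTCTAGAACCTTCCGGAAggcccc

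Hspa5, Hsp90b1 and Dnajc3 share an element of another kind. Capitals mark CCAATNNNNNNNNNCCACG, the ER stress element through which ATF6 acts. The stretches lie at chr2:34772019-34772048 (plus strand), chr10:86705633-86705662 (minus strand) and chr14:118937802-118937931 (plus strand).
Hspa5: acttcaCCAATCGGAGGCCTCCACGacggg
Hsp90b1: acaagcCCAATCGCAAGGAGCCACGcttcg
Dnajc3: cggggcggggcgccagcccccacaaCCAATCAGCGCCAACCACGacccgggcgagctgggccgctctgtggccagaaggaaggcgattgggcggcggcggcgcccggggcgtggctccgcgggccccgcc

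Windows of 300 bases (250 before to 50 after each start) were found for 56 members and searched on both strands. The 3-unit heat shock element occurred in 4 members (Dnajb6, Hspd1, Hspe1 and Hsph1), 7.14%, against 0.662% of 27025 genes with a window. The ER stress element occurred in the 3 genes shown, 5.36% against 0.137%. The 2-unit form GAANNTTC, which also sits inside the 3-unit element, was found in 23.2% of members and 9.04% of all genes. TTCNNGAA was found in 10.7% and 9.60%, the CCAAT box in 41.1% and 41.1%, and TATAA in 23.2% and 27.99%. A match says that the letters are present, not that a factor binds there.

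In the comparison of APOE4 with APOE3, averaged over diet and sex, Hspb6 rose and Dnaja4 fell. No other member passed the test (edgeR's quasi-likelihood test, Benjamini-Hochberg adjusted over 15195 genes), while 10 of 66 had an unadjusted p under 0.05, beside 21.3% of all genes. The 2 calls are 3.03% of members, below the 6.79% of all tested genes that were called in this comparison. The median log2 difference of members was 0.011, against -0.00011 over all genes.

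Hspb6 encodes Hsp20, a small heat shock protein best known from smooth muscle and heart. In APP/E3 mice its level was 2.24 CPM at the lowest, 3.82 at the median and 6.48 at the highest (3.88 ± 0.98, SD, n = 27). In APP/E4 mice the same values were 3.78, 6.04 and 8.55 CPM (5.71 ± 1.13, SD, n = 25). The ranges overlapped, but 24 of 25 APP/E4 libraries lay above the APP/E3 median, 5 lay above the highest APP/E3 library, and 1 of 27 APP/E3 libraries lay above the APP/E4 median. The fitted difference was 0.55 ± 0.09 (SE) on the log2 scale, 1.46-fold, with adjusted p = 2.52e-05 by edgeR. It held in each of the 52 fits that left out 1 library (0.52 to 0.57) and in the 33 libraries of class 1 (0.61, adjusted p = 0.00055).

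Group by group, the APP/E4 mean of Hspb6 exceeded the APP/E3 mean in all 4 strata. In HFD females it went from 2.24, 3.32 and 5.09 CPM (lowest, median, highest, n = 8) to 3.78, 6.30 and 6.58 (n = 7), a log2 difference of 0.68 ± 0.16 with adjusted p = 0.0300. In ND females it went from 2.91, 3.88 and 4.603 CPM (n = 7) to 4.14, 6.22 and 8.55 (n = 7), 0.64 ± 0.17 with adjusted p = 0.0460. Hspb6 was the only member called in any stratum. In HFD males the APP/E3 values were 2.58, 3.45 and 4.15 CPM (n = 6), and the 5 APP/E4 libraries measured 4.48, 5.15, 6.48, 6.04 and 4.58 CPM. Those groups did not overlap, yet the log2 difference of 0.61 ± 0.19 did not pass across all genes (adjusted p = 0.366). In ND males the values were 3.49, 4.61 and 6.48 CPM against 4.07, 5.72 and 6.65 (n = 6 each), which overlap broadly. The genotype by sex term for Hspb6 was 0.23 ± 0.18 (adjusted p = 0.948), so the difference between the sexes was within error.

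**Figure D2:**
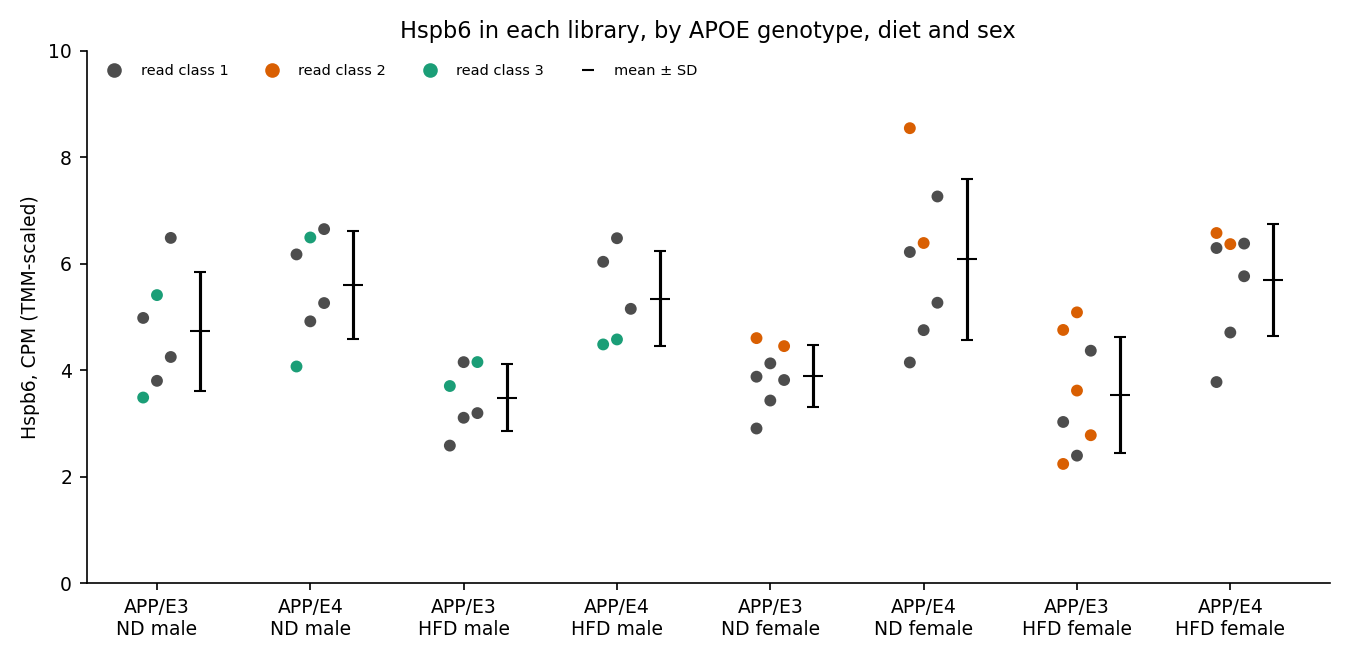
Hspb6 in each of the 52 libraries, in CPM, by genotype, diet and sex, coloured by read class, with the group mean and SD beside the points. The APP/E4 groups have means of 5.35 to 6.08 CPM and the APP/E3 groups 3.48 to 4.74 CPM.

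Called members per stratum were few throughout, as were called genes. The count was 0 of 66 in ND males (background 0.401% of all genes), 1 in ND females (0.961%), 0 in HFD males (0.224%) and 1 in HFD females (0.605%). Members with an unadjusted p under 0.05 numbered 3, 6, 2 and 6, beside 10.96%, 15.8%, 5.39% and 12.03% of all genes, and DESeq2 and limma voom also called 0 in both male strata. The HFD female call was lost in 9 of 52 fits without 1 library, namely libraries 3, 4, 5 or 8 of APP/E3 HFD females or 1, 3, 5, 6 or 7 of APP/E4 HFD females (adjusted p up to 0.0820). The ND female call was lost in 27 of 52, with the highest adjusted p, 0.154, without library 7 of the APP/E4 ND females. In class 1 alone the adjusted p was 0.214 and 0.115.

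Beside Hspb6, markers of oligodendrocytes and of mural cells were read, since small heat shock proteins are made by several non-neuronal cells. All 6 oligodendrocyte markers were higher in APP/E4, 1 of them past the test (Mag, myelin-associated glycoprotein, 0.38, adjusted p = 0.0361). Their summed level was 1125 to 5067 CPM in APP/E3 (median 2707) and 2316 to 6953 in APP/E4 (median 3202). Of the 7 mural and fibroblast markers 0 passed in the averaged comparison, with summed medians of 103 and 105 CPM. In ND females, where Hspb6 was called, Col1a1 of that list was lower in APP/E4 (-1.57, adjusted p = 0.0498). The part of these cells in the Hspb6 difference was not tested. Hspb6 lies on chromosome 7, as Apoe does, with 166 tested genes between them. Of its 20 nearest tested neighbours 4 were called, 2 higher and 2 lower in APP/E4, and 104 of 1143 tested genes on the chromosome (9.10%) were called.

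Dnaja4, a cytosolic J protein of the class that pairs with Hspa8, fell slightly. It measured 61.6, 68.8 and 81.1 CPM (lowest, median, highest) in APP/E3 and 53.2, 65.0 and 82.7 in APP/E4. The ranges overlapped over most of their length, with the lowest libraries in APP/E4. The log2 difference was -0.12 ± 0.04, with adjusted p = 0.0357 by edgeR. The call was lost in 4 of 52 fits without 1 library (library 6 of APP/E3 HFD males, library 2 of APP/E3 ND males, library 3 of APP/E4 HFD males or library 4 of APP/E4 ND males, with adjusted p from 0.0511 to 0.0553) and in class 1 alone (0.160).

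Members just short of the threshold included Hspa4 (0.09 ± 0.03, adjusted p = 0.0567) and Hspa9 (0.11 ± 0.04, adjusted p = 0.118), with Hspb3, a muscle small heat shock protein, at 0.50 ± 0.18 (adjusted p = 0.0871) and Dnajc4 at -0.16 ± 0.06 (adjusted p = 0.0984). Hspa4 measured 250.3, 289 and 317 CPM in APP/E3 and 237, 312 and 338 in APP/E4. Hspa9 measured 163, 205 and 280.2 against 171, 222 and 272. In a fit with the read class as a term, 5 members were called (7.58% of members, background 8.59%): Hspb6, Dnaja4, Hspa4 (adjusted p = 0.0191), Hspa9 (0.13, adjusted p = 0.00344) and Hspd1 (0.10, adjusted p = 0.0115). Hspd1 had APP/E3 values of 74.1, 79.5 and 87.9 CPM in class 1 (n = 16) and APP/E4 values of 76.7, 86.8 and 97.7 (n = 17). The ranges overlapped over most of their length.

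Genes that work with these chaperones but carry other symbols were counted by lists. The counts stand beside 6.79% of all tested genes called between genotypes, and no list was tested as a set. Of 20 co-chaperones of Hsp90 and Hsp70 without a J domain, 5 passed the test between genotypes. Unc45a, a chaperone of myosin that works with Hsp90, fell by 0.28 on the log2 scale (adjusted p = 0.00013). Chordc1 (0.18, adjusted p = 0.00569), Tomm34 (0.17, adjusted p = 0.00732), Cdc37l1 (0.15, adjusted p = 0.0165) and Ptges3 (p23, 0.15, adjusted p = 0.0452) rose. Of 26 genes of endoplasmic reticulum folding and the unfolded protein response 2 passed: Atf4, the transcription factor of the integrated stress response, rose by 0.38 (adjusted p = 6.2e-05), and Ddit3 (CHOP), a target of Atf4, fell by 0.18 (adjusted p = 0.0102). Of 13 mitochondrial folding factors and proteases Yme1l1 (0.18, adjusted p = 8.57e-05) and Lonp1 (0.08, adjusted p = 0.0386) rose. Of 14 TRiC and prefoldin subunits Vbp1 fell by 0.15 (adjusted p = 0.00317). Heat shock factors (4 tested), exchange factors (11 tested) and Cryab gave 0 calls by edgeR.

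The Western diet left the members without a called change. Averaged over genotype and sex, 0 of 66 members passed (edgeR), as did 0% of all tested genes, and DESeq2 and limma voom also called 0 members. At an unadjusted p under 0.05 there were 5 members, 3 higher and 2 lower on HFD, which is 7.58% of members beside 9.20% of all genes. The members' median log2 difference was 0.0035 and that of all genes -0.0020.

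The smallest p belonged to Hspbp1, which measured 55.7, 63.9 and 76.8 CPM on ND and 45.7, 57.9 and 72.6 on HFD (26 libraries each). The difference was -0.12 ± 0.04 (unadjusted p = 0.00324, adjusted p = 0.361), and the ranges overlapped over most of their length. Dnajc3, which inhibits the kinase PERK in the unfolded protein response, measured 53.2, 76.2 and 92.2 CPM on ND and 62.7, 83.5 and 103.9 on HFD (0.13 ± 0.04, adjusted p = 0.370). Its HFD mean was the higher in all 4 genotype and sex strata, for example 83.9 ± 4.4 against 77.5 ± 3.5 CPM in APP/E4 males. Hspb1 came to 0.25 ± 0.12 (adjusted p = 0.524) and Hspb6 to -0.18 ± 0.09 (adjusted p = 0.545).

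Within strata, edgeR again called 0 members in every diet comparison, as did DESeq2 and limma voom. Members at an unadjusted p under 0.05 numbered 10 of 66 in APP/E3 males (beside 13.6% of all genes), 2 in APP/E3 females (4.69%), 0 in APP/E4 males (3.65%) and 3 in APP/E4 females (7.90%). Called genes made up 0% of the table in APP/E3 males, APP/E4 males and APP/E4 females and 0.0263% in APP/E3 females.

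In APP/E3 males, the smallest p was that of Dnajb6, which measured 21.9, 26.7 and 27.2 CPM on ND (lowest, median, highest, n = 6) and 18.5, 20.5 and 22.5 on HFD (n = 6). The groups overlapped only in the lowest ND library. The difference of -0.31 ± 0.09 had adjusted p = 0.266. Dnajb6 has 7 closely matching pseudogenes, and the part of shared reads was not tested. Dnajc16 measured 42.9, 70.5 and 81.5 CPM on ND against 78.9, 81.2 and 83.1 on HFD (0.26 ± 0.09, adjusted p = 0.279), with 1 ND library inside the HFD range and 1 far below the others. Hspa4l, an Hsp110 relative, measured 94.0, 141 and 155 CPM against 160, 164 and 172 without overlap (0.29 ± 0.10, adjusted p = 0.285).

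In APP/E3 females, Hspa1b measured 7.79, 10.02 and 21.8 CPM on ND (n = 7) and 5.31, 8.05 and 9.74 on HFD (n = 8), a difference of -0.61 ± 0.21 (unadjusted p = 0.0062, adjusted p = 1.0). The blood genes Hba-a1 (-4.33) and Hbb-b1 (-4.14, adjusted p = 0.0431 for each) fell in the same comparison, and their part was not tested. In APP/E4 females, Hspb1 measured 1.37, 2.63 and 3.07 CPM on ND and 2.17, 3.71 and 4.96 on HFD (0.60 ± 0.23, adjusted p = 0.599, n = 7 each). Hspb8 (Hsp22), which acts with Bag3 in clearing misfolded protein, measured 9.25, 11.8 and 16.7 CPM against 12.8, 16.2 and 20.6 (0.43 ± 0.18, adjusted p = 0.599). In all 3 genes the diet groups overlapped. No member passed in any interaction of diet with genotype (background 0%), diet with sex (0%) or genotype with sex (0.00658%), by edgeR, DESeq2 or limma voom. Unadjusted p under 0.05 was reached by 4, 8 and 1 members, beside 9.97%, 7.84% and 5.11% of all genes, led by Hspa1b (0.63 ± 0.23, adjusted p = 0.469), Dnajc16 (-0.26 ± 0.09, adjusted p = 0.600) and Dnajc25 (-0.42 ± 0.18, adjusted p = 0.948).

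Of the partner lists, none held a called gene in the averaged diet comparison. The 26 endoplasmic reticulum genes had a median log2 difference of 0.028, with 19 higher and 7 lower on HFD. The 14 TRiC and prefoldin genes had one of -0.017, with 2 higher and 12 lower. The median over all tested genes was -0.0020. Directions of the other lists are not given and no list was tested as a set, so no diet response is read from these counts.

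Females had higher levels of 7 members than males, averaged over genotype and diet. They were the inducible Hsp70 genes Hspa1a and Hspa1b with their neighbour Hspa1l, the mitochondrial chaperonin genes Hspd1 and Hspe1, the mitochondrial import motor gene Dnajc19, and Dnajb2, a J protein enriched in neurons. The 7 calls are 10.6% of members, against a background of 4.42%, and all were higher in females. At an unadjusted p under 0.05 there were 15 members beside 18.9% of all genes, and the members' median was 0.013 beside 0.0027 for all genes. DESeq2 and limma voom called 7 as well. With the read class in the fit, however, 0 members passed by edgeR (background 1.31%, with 8 members and 14.6% of all genes at an unadjusted p under 0.05). In class 1 alone the count was also 0 (background 0.856%, with 11 members and 15.1% of all genes). With title style as a further term it was again 0 (background 0.211%, with 7 members and 12.7% of all genes). Sex calls here thus rest on fits that leave the class out.

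The calls of the chromosome 17 genes Hspa1a, Hspa1b and Hspa1l were all lost with the class in the fit. Hspa1a measured 4.13, 7.55 and 14.98 CPM in females (lowest, median, highest, n = 29) and 3.62, 5.25 and 8.00 in males (n = 23). Of the 29 females 11 lay above the highest male, 6 of class 2 and 5 of class 1. The log2 difference was 0.51 ± 0.10 (adjusted p = 0.00147). It was 0.36 with the class term (adjusted p = 0.134) and 0.37 within class 1 (adjusted p = 0.186), where females averaged 7.37 ± 2.46 CPM (n = 18) and males 5.53 ± 1.22 (n = 15). Hspa1b measured 4.44, 9.08 and 21.8 CPM in females and 3.47, 6.39 and 9.72 in males, again with 11 females above the highest male, 4 of class 2 and 7 of class 1. Its difference was 0.51 ± 0.12 (adjusted p = 0.00656), and 0.38 both with the class term (adjusted p = 0.198) and within class 1 (adjusted p = 0.227). Hspa1l, a testis-enriched Hsp70 whose start lies 547 bases from that of Hspa1a on the opposite strand, came to 0.19 ± 0.05 (adjusted p = 0.0374), and 0.16 with the class term (adjusted p = 0.263).

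For the mitochondrial genes little of the difference was seen within class 1. Hspd1 measured 75.2, 90.3 and 133 CPM in females and 74.1, 80.2 and 97.7 in males (0.25 ± 0.06, adjusted p = 0.0085). All 11 females above the highest male were of class 2 and 0 of class 1. Within class 1, females averaged 84.3 ± 5.7 CPM and males 82.1 ± 5.7, and the difference was 0.03. Dnajc19 went from 0.78 ± 0.17 (adjusted p = 0.00339) to 0.11 within class 1, Hspe1 from 0.21 ± 0.06 (adjusted p = 0.0363) to 0.04 with the class term, and Dnajb2 from 0.13 ± 0.03 (adjusted p = 0.0181) to 0.04. The Hspe1 call was lost in 14 of 52 fits without 1 library and that of Hspa1l in 13 of 52, with adjusted p up to 0.0678 and 0.0691, in both cases highest without library 5 of the APP/E4 HFD males. The calls of the other 5 members held in all 52.

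**Figure D3:**
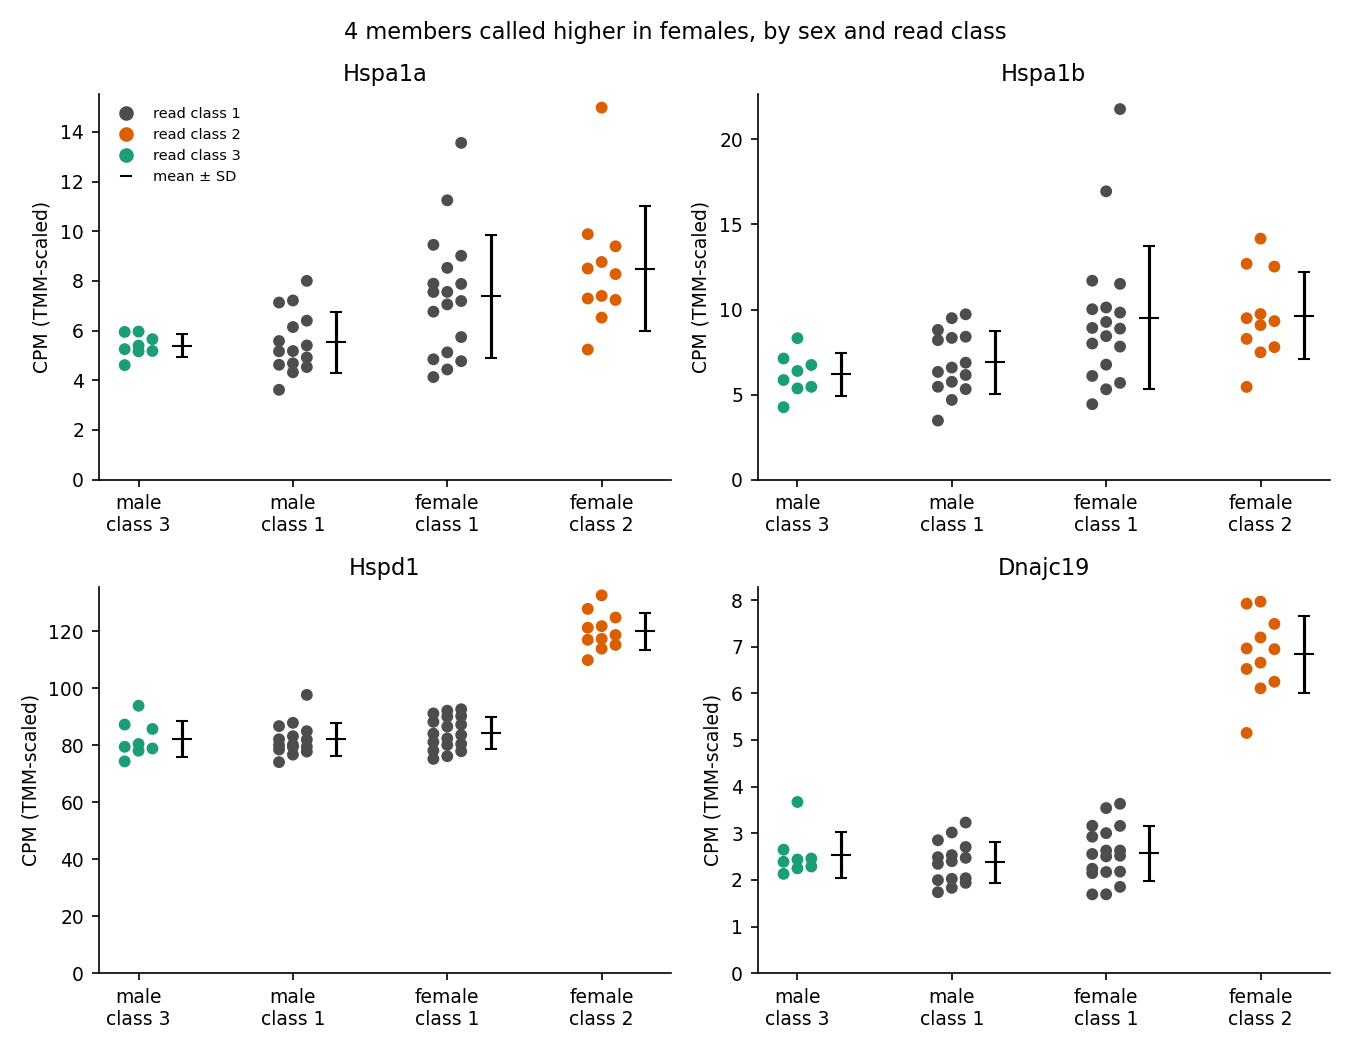
Levels in CPM of 4 members called higher in females, split by sex and read class, with each library as a point. Hspd1 in class 2 females (110 to 133 CPM) lies above every other library, whereas Hspa1a and Hspa1b show female libraries above the highest male in classes 1 and 2.

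Cell type markers also moved with sex. Gfap (0.71) and S100b (0.21) of astrocytes, C1qa (0.32) of microglia and Ttr of the choroid plexus (3.35) were higher in females, all past the test. Their part in the differences of members was not tested. Among partner genes Ptges3 fell in females by 0.19 (adjusted p = 0.0116), and Stub1 (the ubiquitin ligase CHIP, which acts on Hsp70 clients, 0.24, adjusted p = 0.0269), Sec61b (0.23, adjusted p = 0.0101) and Sdf2l1 (0.32, adjusted p = 0.0164) were higher. With the class term Stub1 still passed (0.34, adjusted p = 0.0223). Ptges3 (-0.11, adjusted p = 0.266), Sec61b (0.12, adjusted p = 0.390) and Sdf2l1 (0.27, adjusted p = 0.197) did not.

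More members were called between read classes 2 and 1 than in any of the 14 labelled comparisons. In class 2 against class 1, 19 of 66 members passed, 18 higher and 1 lower (28.8%, background 22.8%), and the members' median was 0.088 against -0.0059 over all genes. In class 3 against class 1, 0 members were called by edgeR (background 0.283%), with 1 at an unadjusted p under 0.05. These are descriptions of sets drawn from pseudogene reads, with the members left out of the clustering.

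By compartment, 14 of 30 cytosolic members and 4 of 10 mitochondrial members were called higher in class 2, and 0 of 14 in the endoplasmic reticulum. Of all tested genes, 22.8% were called in either direction. Hspd1 measured 109.9, 118.7 and 132.7 CPM in class 2 and 74.1, 82.1 and 97.7 in class 1 (0.54 ± 0.04), so the sets did not overlap. Hspa8 measured 340, 362 and 413 CPM against 195, 291 and 358 (0.51 ± 0.08). Dnaja1 (0.39 ± 0.04), Hspe1 (0.40), Hspa9 (0.29), Hsp90aa1 (0.22) and Hsp90ab1 (0.13) were also higher. Cell type markers differed between the classes too. Beside the olfactory markers, 3 of 5 of striatum (Rgs9 at -1.35, Ppp1r1b at -1.02, Adora2a at -1.47) and 2 of 6 of choroid plexus (Clic6 at -1.33, Kl at -0.94) were called lower in class 2. Of the 6 inhibitory neuron markers Pvalb (0.94) and Vip (0.49) were called higher and Gad2 (-0.68) and Slc32a1 (-0.61) lower, and of the 8 immediate early genes Egr1 (0.51) and Arc (0.71) were higher. Their part in the members' differences was not tested.

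Of the 19 members called between the classes, 11 have pseudogene copies. A copy was counted where a pseudogene transcript (GENCODE vM21, 13583 searched) matched at 90% identity or more over 300 bases or more. Of the 15 members with a copy, 11 were called higher (73.3%), and of the 50 without, 7 (14%). Over all tested genes the same shares were 37.3% of 1390 and 9.27% of 12391. The classes were themselves drawn from pseudogene reads, so these shares are not independent of how the classes were made. They are a description and not a test. Dnajc19, whose pseudogene match falls short of 300 bases, is among the 50 without a copy. Hspa8 had 12 copies, Dnajb6 7, Hspd1 5 and Hsp90aa1 4. How reads that match several places were counted is not given in the sources used here, and its part in the class difference was not tested.

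**Figure D4:**
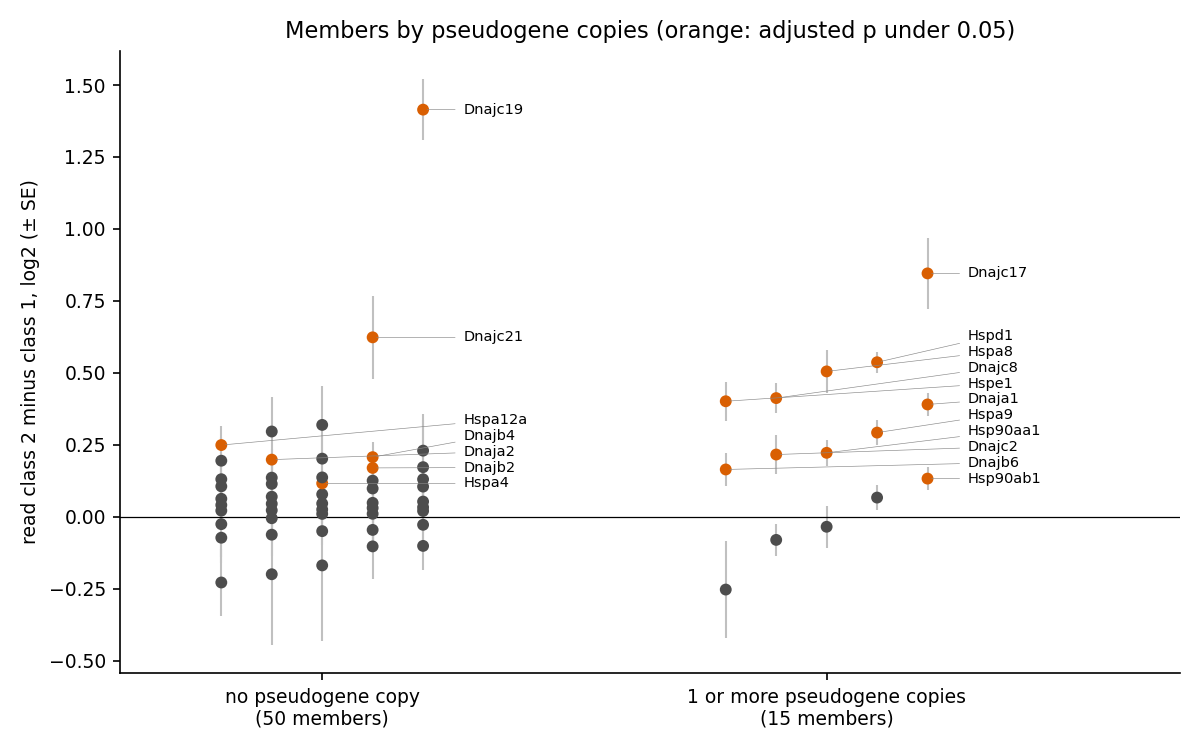
Log2 difference between read class 2 and class 1 (± SE) for members without and with pseudogene copies, with orange for adjusted p under 0.05. Of the 15 members with a copy 11 are orange and higher, against 7 of 50 without. The classes were drawn from pseudogene reads.

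Dnajc19 has a near-identical pseudogene in the table, Dnajc19-ps. It encodes a J protein of the mitochondrial import motor, and the pseudogene matches its transcript at 98.9% over 281 bases with 3 mismatches, just under the length limit above. The 90 coding bases shown lie at chr3:34078812-34079260 (minus strand, spanning 2 exons) in Dnajc19 and at chr7:103882762-103882851 (minus strand) in the pseudogene (GENCODE vM21 transcripts, GRCm38), and capitals mark the 2 positions that differ.
Dnajc19: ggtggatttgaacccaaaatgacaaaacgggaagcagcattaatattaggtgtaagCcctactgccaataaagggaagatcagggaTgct
Dnajc19-ps: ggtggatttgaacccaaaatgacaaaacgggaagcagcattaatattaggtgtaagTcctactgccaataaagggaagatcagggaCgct

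The gene and its pseudogene differed between the classes in opposite directions. Dnajc19 measured 1.69, 2.49 and 3.63 CPM in class 1 and 5.15, 6.95 and 7.97 in class 2, without overlap (1.41 ± 0.11). Dnajc19-ps went the other way, from 7.48, 9.88 and 13.9 CPM to 3.40, 5.62 and 8.25 (-0.74), and was the only member called lower. The sum of both stayed at 12.3 ± 1.5 CPM in class 1 (n = 33) and 12.7 ± 1.9 in class 2 (n = 11), while the share on Dnajc19 went from 20.2% ± 4.0 to 54.0% ± 5.0.

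For 12 pairs of members, most of them from the same compartment, log2 levels were correlated after subtracting each group's mean. All 12 coefficients were positive, and 11 passed an adjusted p of 0.05 (two-sided permutation test within groups, 100000 resamples, Benjamini-Hochberg over the 12 pairs, n = 52). Libraries share their depth and scaling across both genes of a pair, and no comparison with other gene pairs was made, so nothing is read as particular to these pairs.

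The closest pair was Hsp90aa1 with Hsp90ab1 (r = 0.81, rho = 0.79, permutation p = 1e-05 for each, the smallest the resamples can give). Hspd1 with Hspa9 reached r = 0.77 (rho = 0.83) and Hspd1 with Hspe1 r = 0.71 (rho = 0.67), which are all mitochondrial. The endoplasmic reticulum pairs Hspa5 with Dnajb11 (r = 0.67, rho = 0.66) and Hspa5 with Hsp90b1 (r = 0.64, rho = 0.66), the latter with ER stress elements in both promoters, followed. Hspa5 also varied with the cytosolic Hsph1 (r = 0.68, rho = 0.71). Hspa1a with Hspa1b gave r = 0.64, but the near identity of these genes means that shared reads enter both.

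Within class 1 (n = 33), 9 of the 12 pairs passed. Hspd1 with Hspe1 kept r = 0.59, Hspa5 with Hsp90b1 0.58 and Hsp90aa1 with Hsp90ab1 0.70. Hspa8 with Dnaja1, its J partner, dropped from r = 0.67 (rho = 0.65) to 0.25 (rho = 0.29, permutation p = 0.119, adjusted p = 0.130), and both genes differ between the classes. Hspb1 with Hspa1b went from 0.48 to 0.60. Hspa1b with Hsph1 did not pass in either set (r = 0.13, permutation p = 0.451, and r = 0.10, permutation p = 0.650), although both are heat shock factor targets. Hsph1 with Dnajb1 passed over all libraries (r = 0.33, rho = 0.41, adjusted p = 0.0320) but not in class 1 (r = 0.42, adjusted p = 0.0658) or without the 2 libraries farthest from the Hsph1 median (r = 0.29, adjusted p = 0.0522).

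**Figure D5:**
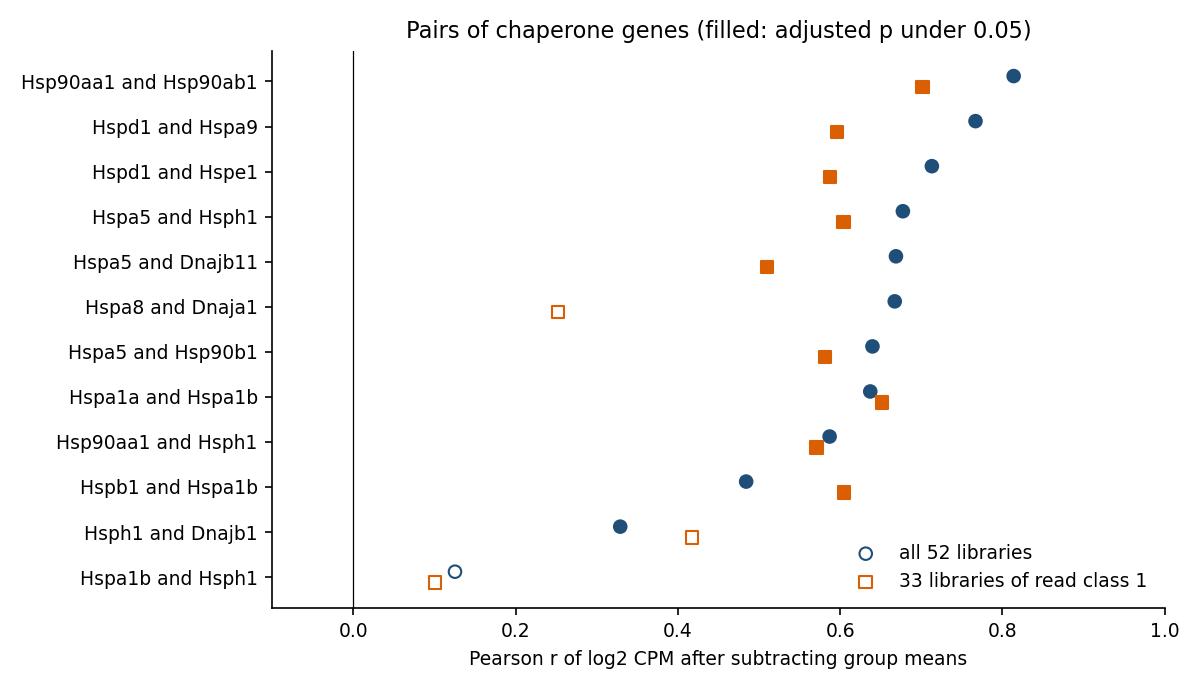
Pearson r of log2 CPM for 12 pairs of chaperone genes after subtracting group means, over all 52 libraries and within read class 1, filled where the adjusted permutation p is under 0.05. Hsp90aa1 with Hsp90ab1 is highest at 0.81, and Hspa8 with Dnaja1 falls from 0.67 to 0.25.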

How the data were processed

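The authors deposited raw read counts per gene for 52 frontal cortex libraries, and the table carries no normalization. The submitters' processing notes name Subread, featureCounts, limma and edgeR 3.14.0 with build mm9, but no settings. Annotation, strand and the handling of multi-mapped reads were not given in the sources used here. Per the labels' protocols, perfused mice gave RNA purified on RNeasy columns, and an Illumina mRNA reagent set made the libraries. The authors also deposited a log2 coefficient and a p-value per gene for diet, whose direction was not given in the sources used here.

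Counts were fitted in edgeR 4.0.16 (R 4.3.3) with TMM scaling, filterByExpr over the 8 groups (15195 genes kept, 497 removed), 1 mean per group and the robust quasi-likelihood test. All 14 contrasts came from this fit, were adjusted over all tested genes by the Benjamini-Hochberg method and were called at 0.05. Levels are TMM-scaled CPM. Levels per kilobase use the union of GENCODE vM21 exons (GRCm38), whereas reads were counted on mm9. The code was tested on simulated counts. Read classes came from Ward clustering of 273 pseudogene entries, cut at a preset 3 sets. Groups came from the labels, and replicate numbers follow deposit order and pair nothing. No 2 libraries of a group agreed within sampling noise (146 pairs, lowest chi-square per gene 2.95). P-values measure the spread between these libraries, each from its own animal. Copies were searched with BLAST+ 2.17.0. In each comparison the text names the called members and, where fewer than 6 were called, those of smallest p, besides 21 anchor genes named throughout and the called partner genes. Members and lists were chosen with earlier results of these data known. Alternatives were RLE scaling, DESeq2 1.42.0, limma voom 3.58.1, no low-count filter, the read class or title style as terms, class 1 alone and leaving out each of 52 libraries. A marker gene is not reported here.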

Additional observations from a re-analysis of the deposited data

Results flagged for a closer look

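Among 26 named members checked in 8 groups, 15 of 208 group checks held a library far from the others of its group (7.21%, where chance gives about 1 in 20). Of these, 9 libraries were the highest and 6 the lowest of their group. Several fell in the same animals, as levels in CPM show.

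Library 4 of the APP/E3 ND females was high in Dnajb2 (126, others 88.7 to 105) and Hspa1l (14.4, others 8.80 to 10.1) and low in Dnajb11 (31.7, others 35.1 to 37.4). Library 1 of the APP/E3 ND males was high in the endoplasmic reticulum chaperones Hspa5 (409, others 248 to 285) and Hsp90b1 (428, others 363 to 383). Library 2 of the same group was high in Dnajb2 (95.2, others 85.0 to 88.2) and Hspe1 (31.3, others 21.99 to 24.6).

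Library 3 of the APP/E4 HFD males was low in Dnajc5 (331, others 378 to 395) and Hsph1 (336, others 398 to 415), and library 2 of that group was high in Hspa1a (8.00, others 5.58 to 6.14). Library 6 of the APP/E4 ND males was low in Dnajc5 (300.4, others 366 to 398) and high in Hspa1a (7.21, others 4.61 to 5.40), and library 4 of that group was low in Hsp90aa1 (275, others 325 to 337). Library 6 of the APP/E4 HFD females was high in Hspa1b (16.9, others 6.76 to 10.1). Library 4 of the APP/E3 HFD males was low in Hspe1 (14.9, others 21.2 to 23.7).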

How the results depend on the processing

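Under RLE scaling, no filter, limma voom and DESeq2 the direction of every named member's difference held, and no count of called members changed by over 1.5 times except in ND females between genotypes, where limma voom and DESeq2 called 0 in place of 1. Class 1 alone also gave 0 there and 0 in place of 1 in HFD females. For APP/E4 against APP/E3 averaged over diet and sex, 2 members became 5 with the read class as a term and 5 with title style added. The 7 members called between the sexes became 0 with the class term, 0 with title style added and 0 in class 1 alone. With both terms, the sex difference of Hspe1 reversed to -0.0737, and in class 1 alone the genotype by sex term of Hspa2 reversed to 0.0444, neither called. The cause of these changes was not tested. Leaving out 1 library gave 1 to 5 calls between genotypes averaged over diet and sex, 0 to 2 in ND females, 0 to 1 in HFD females and 5 to 10 between the sexes. All diet comparisons, the interactions and both male genotype comparisons gave 0 throughout. Of the 12 pairs, 11 passed with RLE scaling, 10 without the 2 farthest libraries and 9 in class 1. No paired analysis was possible because replicate numbers follow deposit order and carry no pairing in the labels. Depth limits Hspb7, Dnajb13, Dnajb3 and Hspb3, which lie near the counting limit in some libraries.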

Other observations

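In the authors' deposited table, the coefficient for diet had the opposite sign to the HFD minus ND difference given here for 61 of 66 members. Sizes were close for Hspbp1 (0.11 there, -0.12 here) and Dnajc3 (-0.12 there, 0.13 here). The coefficient thus appears to run as ND minus HFD, and the opposite signs are not read as a disagreement. For Hspb6 the coefficient in the authors' deposited table was 0.18 with a p-value of 0.111, and for Dnaja4 it was -0.06 with a p-value of 0.165. Both values concern diet and have no bearing on the genotype differences of these genes.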
